A study of Mus musculus with 160 samples.

Results

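The cells described here were the day-21 induced hematopoietic progenitor cells (iHPCs) with high expression of Gata2, a zinc finger transcription factor of stem cells and mast cells. They were chosen by a single value: a day-21 cell was called Gata2-high at 31 TPM (transcripts per 1000000) or more, that is at 5 or more on the log2(TPM+1) scale, and Gata2-low below it. By this rule 22 of the 56 day-21 iHPCs were Gata2-high and 34 were Gata2-low, out of 160 single cells in the whole series. The share of Gata2-high cells was 39.3%, with an exact 95% interval of 26.5% to 53.2% that covers counting error only.

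All cells were of the C57BL/6 strain and derived from pluripotent stem cells carrying a doxycycline-inducible Runx1-p2a-Hoxa9 cassette, which the study placed at the Rosa26 locus. The induced hematopoietic endothelial cells (iHECs, 65 cells) were CD31+CD41lowCD45-c-kit+CD201high, and the iHPCs grew out of such cells on Notch ligand-bearing OP9-DL1 stroma with interleukin-3, Flt3 ligand, stem cell factor and doxycycline. The day-14 (21 cells) and day-17 (18 cells) iHPCs were CD45+ and negative for a lineage panel that included FcεRIα, the IgE-binding chain of the mast cell receptor. The day-21 iHPCs, taken after 10 days of maturation, were Ter119-CD45+c-kit+CD127+, a gate without FcεRIα. Both groups compared below shared the cassette, the culture, the day and this gate. The labels name no clone, culture, animal or experiment for any cell, so the cells of a day count as 1 sample and no difference has a replicate check or a test. Since Gata2 chose the cells, every difference between them is a description.

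Mast cells and basophils arise from myeloid progenitors and carry granules loaded with serine proteases, histamine or serotonin and the sulfated proteoglycans that bind them. Their high-affinity IgE receptor consists of an IgE-binding alpha chain, a signal-amplifying beta chain and a gamma chain shared with other receptors, and its crosslinking empties the granules and starts the making of prostaglandins, leukotrienes and cytokines. Gata2 is required for mast cell development, and stem cell factor and interleukin-3 are the cytokines on which mast cells are commonly grown from progenitors. Early T cell progenitors use Flt3, the interleukin-7 receptor (CD127) and Notch signals, and switch on Tcf7, Gata3 and the pre-T cell receptor.

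The 5 genes with the largest high-minus-low difference among the receptor, granule, transcription factor and lipid mediator lists were Mcpt4, Cma1, Mcpt1, Gzmb and Ctsg, which encode granule serine proteases. They lie within 321 kb of chromosome 14 (chr14:55941451-56262334, GRCm38, the assembly named mm10). The 250 bases before each start are printed because GATA factors bind the letters GATA. These sequences are from RefSeq (GRCm38.p6), read 5′ to 3′ on the strand of the gene, and capitals mark each GATA or its reverse complement TATC. The windows are chr14:56062311-56062560 for Mcpt4, chr14:55944676-55944925 for Cma1 and chr14:56262335-56262584 for Gzmb, all on the minus strand. The Ctsg window, chr14:56102575-56102824, is on the minus strand too, and that of Mcpt1, chr14:56017714-56017963, is on the plus strand.
Mcpt4: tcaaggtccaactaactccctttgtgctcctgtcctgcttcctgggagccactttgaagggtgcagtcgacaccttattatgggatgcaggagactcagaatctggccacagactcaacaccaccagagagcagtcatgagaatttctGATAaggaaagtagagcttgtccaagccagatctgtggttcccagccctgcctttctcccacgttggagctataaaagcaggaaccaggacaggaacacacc
Cma1: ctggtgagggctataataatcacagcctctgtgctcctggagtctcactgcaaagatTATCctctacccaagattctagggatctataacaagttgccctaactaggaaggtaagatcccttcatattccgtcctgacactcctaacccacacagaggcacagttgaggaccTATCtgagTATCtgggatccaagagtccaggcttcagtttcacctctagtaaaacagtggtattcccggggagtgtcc
Mcpt1: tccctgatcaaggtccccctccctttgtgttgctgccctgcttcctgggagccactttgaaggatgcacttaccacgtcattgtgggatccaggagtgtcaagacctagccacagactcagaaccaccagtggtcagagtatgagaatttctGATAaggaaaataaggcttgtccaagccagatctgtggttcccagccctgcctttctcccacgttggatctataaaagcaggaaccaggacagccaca
Gzmb: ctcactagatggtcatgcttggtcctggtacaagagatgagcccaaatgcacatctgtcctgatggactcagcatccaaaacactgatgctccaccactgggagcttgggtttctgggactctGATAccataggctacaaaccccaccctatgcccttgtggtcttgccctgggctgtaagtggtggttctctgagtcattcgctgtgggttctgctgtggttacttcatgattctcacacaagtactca
Ctsg: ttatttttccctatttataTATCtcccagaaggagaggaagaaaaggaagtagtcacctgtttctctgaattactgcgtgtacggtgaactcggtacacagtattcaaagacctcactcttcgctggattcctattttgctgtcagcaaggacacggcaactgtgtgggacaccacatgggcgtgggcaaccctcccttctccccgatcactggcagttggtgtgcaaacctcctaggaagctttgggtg

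Each of the 5 windows held the letters GATA on at least 1 strand, 3 times for Cma1 and 1 time for each of the others. The Mcpt4 and Mcpt1 windows shared the 22 bases atgagaatttctGATAaggaaa, which begin 114 bases before the start of Mcpt4 and 110 before that of Mcpt1, and a further run of 53 identical bases nearer the start. No other pair of these windows shared a run longer than 10 bases. The longer motif AGATAA, searched on both strands as AGATAA or TTATCT, was in 0 of the 5 windows, and the E-box CATGTG (or CACATG) was in 1, that of Ctsg. Other longer forms were not counted, such as TGATAA in the Mcpt4 and Mcpt1 windows and CTATCT in the Cma1 window.

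Across the genome, GATA or TATC was common: 53.6% of 32851 promoter windows of this length held it, 41.1% of the 8910 windows of genes compared here, 49.5% of the 396 windows of genes higher by 2 or more in Gata2-high cells, and 44.2% of the 231 windows of genes lower by 2 or more. Of the granule genes higher by 2 or more, 12 of 14 windows (85.7%) held it, of 12 genes with an entry. AGATAA was in 9.99% of all windows, in 8.84% of the windows of the higher genes and in 8.66% of those of the lower genes. CATGTG was in 12.3%, 10.4% and 10.4% of the same windows. A match of letters is not a binding site, and these windows leave out more distant elements.

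**Figure D1:**
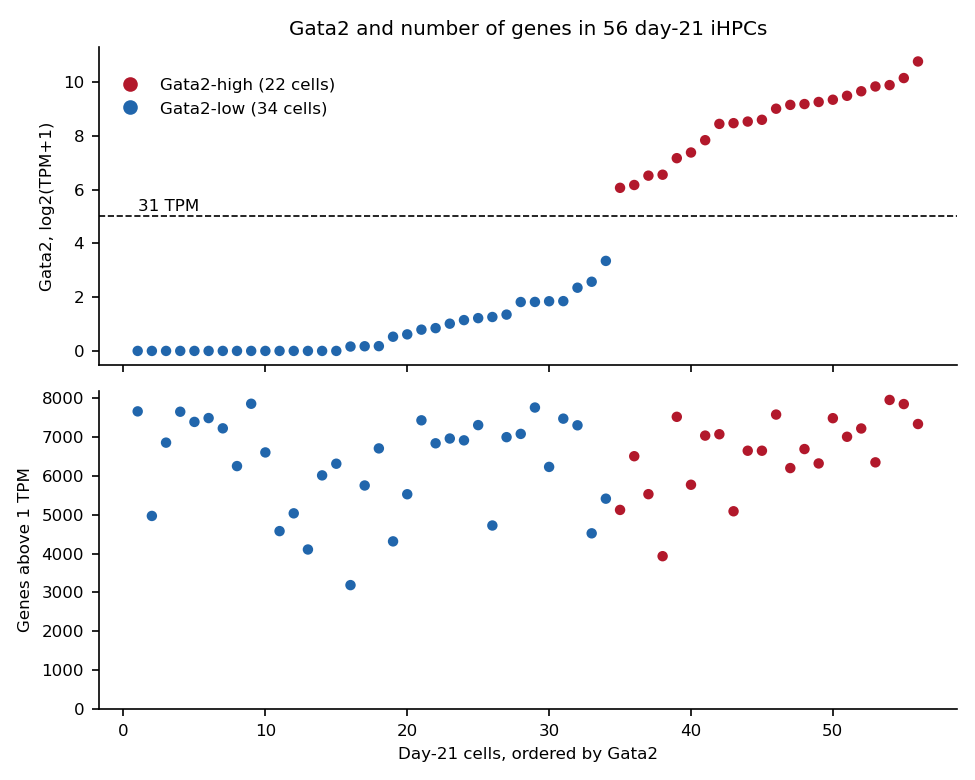
Gata2 as log2(TPM+1) (top) and the number of genes above 1 TPM (bottom) in each of the 56 day-21 iHPCs, ordered by Gata2; red points are the 22 Gata2-high cells, blue points the 34 Gata2-low cells, and the dashed line is 31 TPM. No cell lies between 9.18 and 66.0 TPM, and the numbers of genes overlap widely between the groups.

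Gata2 (chr6:88193891-88207032) itself ranged from 66.0 to 1739 TPM in the Gata2-high cells, with a median of 449.8. In the Gata2-low cells it ranged from 0 to 9.18 TPM, with a median of 0.130. Just inside the threshold were cells of 66.0 and 71.0 TPM and just outside it cells of 9.18 and 4.95 TPM, so any threshold between 10 and 31 TPM chose the same 22 cells. A threshold above 1 TPM would have taken 34 cells and one of 100 TPM or more 18. Genes above 1 TPM numbered 3932 to 7950 per Gata2-high cell (median 6666) and 3188 to 7852 per Gata2-low cell (median 6770).

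The comparison took, for each gene, the mean of log2(TPM+1) over Gata2-high cells minus that over Gata2-low cells. It covered 9276 genes, Gata2 left out, each of which exceeded 1 TPM in at least 11 day-21 cells. The median difference over these genes was 0.00. A difference of 2 on this scale was used to count genes, and it was reached upward by 384 genes (4.14%) and downward by 238 (2.57%). In 2 genes every Gata2-high cell was above every Gata2-low cell (0.0216%), and in 0 genes was every Gata2-high cell below (0%). The 2 genes were Cyp11a1 and Plgrkt, the second named here only because its values were seen, with 468.0 to 3379 TPM in Gata2-high cells and at most 344.3 TPM in Gata2-low cells.

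The genes furthest up were dominated by granule proteins. After Mcpt4, Cma1, Mcpt1, Gzmb and Ctsg came Cyp11a1, the enzyme that makes pregnenolone from cholesterol, then Mcpt-ps1, Ctla2a, Lilrb4, Hdc, Mcpt8, Mcpt2, Gp49a, Papss2 and Cfp, with differences from 9.10 down to 6.72. The genes furthest down were Lck, Cd27, Prss2, Nrgn, Napsa, Ly6d, BC035044, Ptcra, Ifi27l1, Myl10, Timp2, Clec12a, Gzma, Ldhb and Ramp1, from -7.79 to -5.24. Lck, Cd27, Ly6d and Ptcra are genes of lymphoid and T cell progenitors. Mcpt1, Mcpt2, Mcpt4 and Mcpt-ps1 resemble each other, as do Lilrb4 and Gp49a, and how reads shared by such copies were divided is not given in the sources used here.

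**Figure D2:**
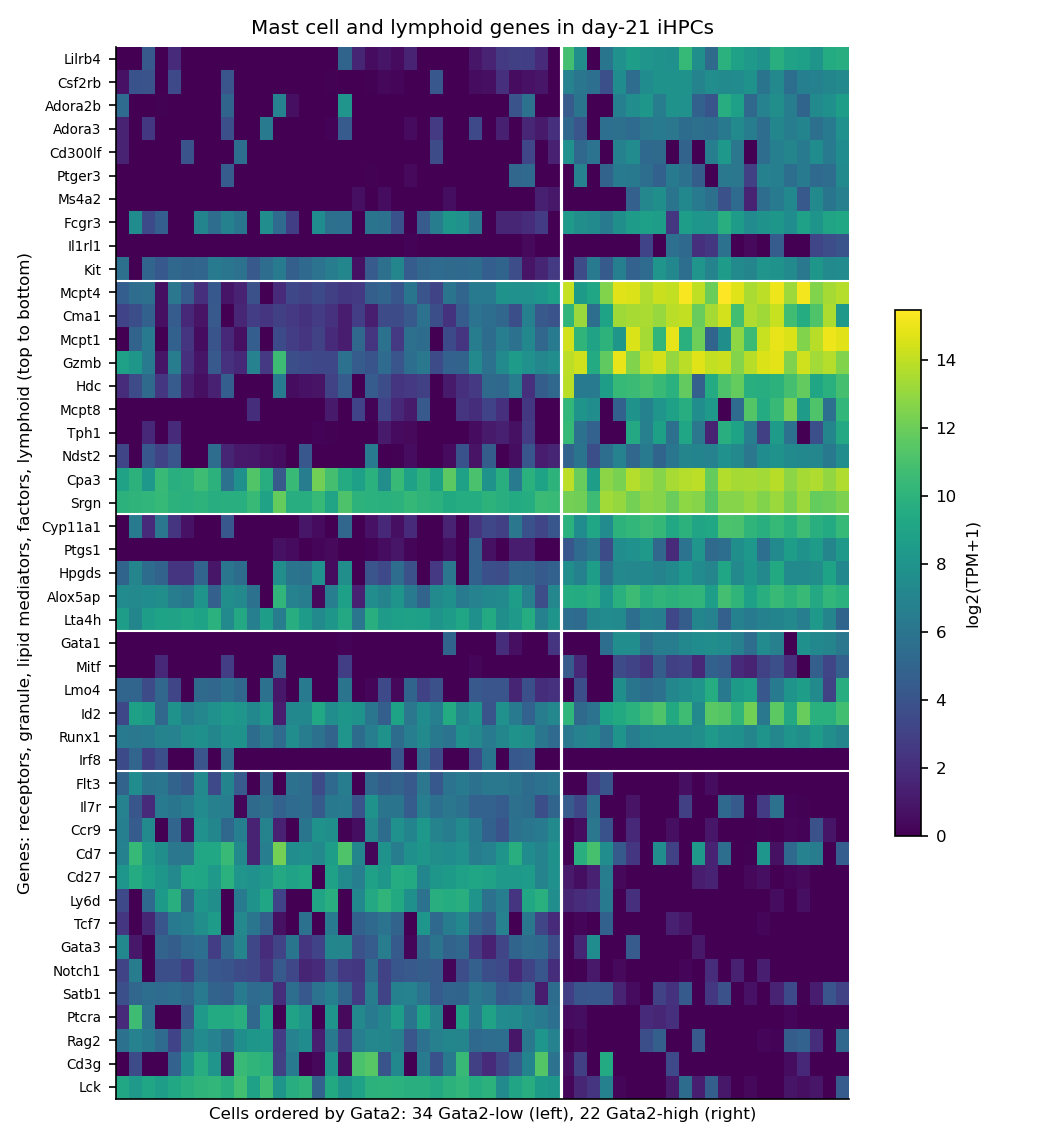
log2(TPM+1) of 45 genes (rows) in the 56 day-21 iHPCs (columns), ordered from left to right by Gata2, with a white vertical line between the 34 Gata2-low and 22 Gata2-high cells and white horizontal lines between the sets. Granule genes such as Mcpt4, at 350.0 TPM or more in every Gata2-high cell, are brightest to the right, lymphoid genes such as Lck, at 28.9 TPM or more in every Gata2-low cell, to the left.

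The label mast-like was given with Gata2, Mcpt4, Cma1, Mcpt1, Hdc and low Flt3. Mcpt4, Cma1, Mcpt1 and Hdc are also on the granule list, so this list describes the label and is no independent check of it. Of 32 listed granule genes, 22 passed the filter on low values, 15 of these were higher by 2 or more and 0 lower by 2 or more, with a median difference of 4.33. Of the 10 that did not pass, 4 were above 1 TPM in at least 1 Gata2-high cell and 6 were above 1 TPM in no day-21 cell. Summed over the list, granule genes took 0.573% to 16.1% of all TPM in a Gata2-high cell, with a median of 7.87%, against a median of 0.332% and a highest value of 0.731% in Gata2-low cells. The ranges overlapped between 0.573% and 0.731%.

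The 3 chymases Mcpt4, Cma1 and Mcpt1 had the largest differences of all genes compared. Mcpt4, the chymase of connective tissue mast cells, was at 350.0 to 45517 TPM in Gata2-high cells (median 15876) and at 0 to 427.0 TPM in Gata2-low cells (median 19.98). Cma1, another chymase, was at 47.04 to 21652 TPM (median 9346) against 0 to 107 TPM (median 9.25). Mcpt1, the chymase of mucosal mast cells, was at 30.6 to 34857 TPM (median 6723) against 0 to 151.2 TPM (median 10.1). For each of these 3 genes, 21 of the 22 Gata2-high cells lay above every Gata2-low cell and 1 did not.

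Gzmb, a granzyme that mast cells share with cytotoxic lymphocytes, was at 702.4 to 32382 TPM (median 15152) in Gata2-high cells and at 0.806 to 1593 TPM (median 35.4) in Gata2-low cells. Mcpt8, a protease regarded as a marker of basophils, was above 1 TPM in 20 of 22 Gata2-high cells, with a median of 292.5 and a maximum of 5134 TPM, and in 12 of 34 Gata2-low cells with a maximum of 18.7 TPM. Mcpt4, Cma1 and Mcpt1 were above 1 TPM in all 22 Gata2-high cells, and so necessarily in those 20. The levels of Mcpt4 and Mcpt8 did not go together: over the 22 cells their Spearman's rho was -0.09. It was 0.75 between Mcpt1 and Mcpt2, which have similar sequences.

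On chromosome 14, 17 genes of the table lie between Cma1 and Gzmb. Of these, 10 passed the filter and 9 were higher by 2 or more. Gm5801, a gene in the middle of the region, was the exception among the 10, with a difference of 0.69. The granzyme genes next to Gzmb were nearly absent: Gzmc, Gzme, Gzmf, Gzmg and Gzmn were above 1 TPM in 0 of 22 Gata2-high cells, which allows a share of up to 3 of 22, and Gzmd was above it in 1. These 6 genes form 1 stretch between Ctsg and Gzmb, which were both higher by over 8 on the log2 scale.

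Cpa3, the mast cell carboxypeptidase, and Srgn, the core protein of the granule proteoglycan, were in both groups. Cpa3 was at 400.7 to 15786 TPM in Gata2-high cells and at 19.4 to 4630 TPM in Gata2-low cells, all 34 of which were above 1 TPM. Srgn was at 1584 to 10224 TPM against 489.9 to 3608 TPM. The mean TPM in Gata2-low cells was 10.2% of that in Gata2-high cells for Cpa3 and 18.02% for Srgn, but 0.341% for Mcpt4, 0.201% for Cma1, 0.237% for Mcpt1, 0.236% for Ctsg and 0.837% for Gzmb.

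Among Gata2-low cells the chymase level went with Gata2, with a Spearman rho of 0.68 over the 34 cells for Mcpt4 and 0.54 for Cma1. Gata2 was near the floor in these cells, with a median of 0.130 TPM and a maximum of 9.18 TPM. Whether transcripts at such low levels came from the cells themselves was not tested. In the 12 Gata2-low cells with Gata2 above 1 TPM, Mcpt4 was at 7.93 to 427.0 TPM with a median of 82.7, and in the other 22 at 0 to 69.2 TPM with a median of 9.87. Mcpt4 was at 0 in all iHECs and in all day-14 and day-17 iHPCs. Cpa3 did not go with Gata2 in this way: its medians were 680.6 and 907.6 TPM in the same 2 sets of Gata2-low cells.

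Amine synthesis and storage genes were higher as well. Hdc, which makes histamine, was at 25.6 to 15158 TPM (median 1165) in Gata2-high cells against 0 to 92.7 TPM (median 4.70). Tph1, the first enzyme of serotonin synthesis in mast cells, was above 1 TPM in 19 of 22 against 6 of 34 cells, with medians of 83.3 and 0 TPM. Slc18a2, the transporter that loads amines into granules, was above 1 TPM in 17 of 22 against 6 of 34 cells, while Hdc was above it in all 22. Ndst2, which sulfates heparin, was at 11.98 to 235.4 TPM against 0 to 79.6 TPM, and Rab27b, a small GTPase of granule release, had medians of 97.4 and 0 TPM.

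Several listed mast cell and basophil genes were absent or nearly so. All cells were of the C57BL/6 strain, and the part of strain in these values was not tested. The tryptases Tpsab1, Tpsb2 and Tpsg1, the basophil protease Prss34 and the receptor of basic secretagogues Mrgprb2 were listed at 0 in all 160 cells, and Mrgprb1 did not reach 1 TPM. Over the series, 7432 of 23420 genes were at 0 in every cell, among them 26 genes of the main lists. Of 30 genes that most cells use, 0 were listed at 0 in every cell, though 3 were at 0 in at least 1 day-21 cell. These 30 genes cannot show how the other zeros arose, and whether those came from the cells or the processing was not tested. Of the basophil markers Mcpt8, Prss34, Cd200r3, Fcer1a and Itga2, 4 of 5 were above 1 TPM in some Gata2-high cell but only Mcpt8 in at least 11 of the 22. Of 6 connective tissue mast cell markers 3 reached that number (Mcpt4, Cma1 and Cpa3), and of 4 mucosal markers also 3 (Mcpt1, Mcpt2 and Itgb7, with Itgae missing). The label mast-like is used here in this limited sense, and the cells did not match any of the 3 marker lists whole.

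Receptor genes of mast cells and basophils were mostly higher. Of 43 listed, 26 passed the filter, 17 of these were higher by 2 or more, 0 were lower by 2 or more, and the median difference was 2.87. Among the 17 that did not pass, 10 were above 1 TPM in a larger share of Gata2-high cells, 4 in a larger share of Gata2-low cells, and 3 in no day-21 cell.

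The IgE receptor was uneven between its chains. Fcer1a, the IgE-binding alpha chain, was above 1 TPM in 2 of 22 Gata2-high cells (9.09%, exact 95% interval 1.12% to 29.2%) and in 0 of 34 Gata2-low cells. Ms4a2, the beta chain, was above 1 TPM in 17 of 22 (77.3%, 54.6% to 92.2%), with a median of 48.3 and a maximum of 208.7 TPM, and in 2 of 34 Gata2-low cells with a maximum of 1.56 TPM. Fcer1g, the gamma chain, was in all cells, at 1284 to 3668 TPM against 116.8 to 2286 TPM. Ms4a2 and Fcer1a were both above 1 TPM in 1 cell. The low-affinity IgG receptor Fcgr3 was at 4.56 to 843.1 TPM against 0 to 288.1 TPM, while the inhibitory Fcgr2b had medians of 50.1 and 55.1 TPM and a difference of -0.91.

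Of the interleukin-3 receptor, the beta chains differed more than the alpha chain. Csf2rb, the common beta chain, was at 12.6 to 247.6 TPM in Gata2-high cells (median 143.9), and was above 1 TPM in 6 of 34 Gata2-low cells with a maximum of 17.01 TPM. Csf2rb2, the interleukin-3-specific beta chain of the mouse, was above 1 TPM in 20 of 22 against 0 of 34 cells. The alpha chain Il3ra differed little, with 12 of 22 against 8 of 34 cells and a difference of 0.93. Csf2rb and Csf2rb2 are near copies, and how their shared reads were divided is not given in the sources used here.

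Kit, the receptor of stem cell factor and part of the sort gate, had a median of 137.3 TPM in Gata2-high and 34.3 TPM in Gata2-low cells, with overlapping ranges. Il1rl1, the interleukin-33 receptor, was above 1 TPM in 10 of 22 against 0 of 34 cells and Crlf2, a receptor chain for thymic stromal lymphopoietin, in 20 of 22 against 18 of 34. The adenosine receptors Adora2b and Adora3 had medians of 108.7 and 61.1 TPM in Gata2-high cells, and of 0 TPM in Gata2-low cells for both. Ptger3, a prostaglandin E2 receptor, had medians of 52.5 and 0 TPM, and C3ar1, the receptor of the complement fragment C3a, was above 1 TPM in 14 of 22 against 0 of 34 cells. Hrh4, a histamine receptor of mast cells, was above 1 TPM in 7 of 22 against 0 of 34 cells.

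Inhibitory surface receptors were also among the higher genes. Lilrb4, which dampens mast cell activation, was above 1 TPM in 21 of 22 Gata2-high cells (median 290.5, maximum 1876 TPM) and in 10 of 34 Gata2-low cells (maximum 30.4 TPM). Cd300lf had medians of 76.5 and 0 TPM and Cd33 of 34.5 and 0 TPM. Cd200r3, a basophil and mast cell receptor, was above 1 TPM in 9 of 22 against 0 of 34 cells, and its maximum was 351.7 TPM. Siglecf went the other way, above 1 TPM in 1 of 22 against 13 of 34 cells.

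Signalling partners of the IgE receptor were in part higher. Of 24 listed, 21 passed the filter, 10 were higher by 2 or more and 0 lower by 2 or more, with a median difference of 1.87. The adaptors Lat and Lat2 were at 215.0 to 1611 TPM and 48.1 to 1639 TPM in Gata2-high cells, against 0 to 576.1 TPM and 0 to 1031 TPM in Gata2-low cells. The adaptor Lcp2 was at 18.6 to 352.8 TPM against 0 to 172.4 TPM. Prkcb, a protein kinase C, was above 1 TPM in 22 of 22 against 2 of 34 cells, and the kinase Btk was at 35.5 to 222.1 TPM against 0 to 189.0 TPM. Lyn, the kinase that starts the cascade, had medians of 125.5 and 36.6 TPM.

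Syk, the kinase that binds the phosphorylated gamma chain, had the lowest difference of this list (-1.78). It was above 1 TPM in 6 of 22 Gata2-high cells with a maximum of 16.1 TPM, and in 21 of 34 Gata2-low cells with a maximum of 57.8 TPM. Plcg2 and Plcg1, the phospholipases below it, differed by -0.93 and 1.31. Gab2 was above 1 TPM in 2 of 22 cells and Rgs13 was listed at 0 in all 160.

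Lipid mediator enzymes differed by branch. Of 32 listed, 15 passed the filter, 9 were higher by 2 or more and 1 was lower by 2 or more, with a median difference of 2.67. Of the 17 that did not pass, 2 were above 1 TPM in a larger share of Gata2-high cells, 8 in a larger share of Gata2-low cells and 7 in no day-21 cell. With all genes above 0 in any day-21 cell counted, the median of the list was 0.14.

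Among the prostaglandin enzymes, Ptgs1 and Hpgds were higher by 2 or more. Ptgs1, the constitutive cyclooxygenase, was at 2.55 to 382.7 TPM (median 144.6) in all 22 Gata2-high cells, and was above 1 TPM in 3 of 34 Gata2-low cells (8.82%, exact 95% interval 1.86% to 23.7%). Hpgds, the hematopoietic prostaglandin D2 synthase, was at 54.6 to 675.1 TPM against 0 to 230.0 TPM. The inducible cyclooxygenase Ptgs2 was above 1 TPM in 0 of 22 against 1 of 34 cells. The prostaglandin E synthases Ptges2 and Ptges3 differed by 0.10 and -0.82, and Ptgds, Ptges, Tbxas1 and Hpgd were above 1 TPM in 0 Gata2-high cells.

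In the leukotriene branch the genes went different ways. Alox5ap, the activating partner of 5-lipoxygenase, was at 278.3 to 1863 TPM against 0 to 1187 TPM. Alox5, the lipoxygenase itself, was listed at 0 in all 22 Gata2-high cells, and Ltc4s, which makes leukotriene C4, was above 1 TPM in 3 of 22. Lta4h, which makes leukotriene B4, was lower, at 8.88 to 328.8 TPM (median 109.8) against 66.9 to 939.1 TPM (median 403.4). Among the 12 iHECs with Gata2 at 31 TPM or more, Alox5 was above 1 TPM in 9 and Ltc4s in 7.

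Cyp11a1, the steroid-synthesis enzyme, was at 176.8 to 2154 TPM (median 974.1) in Gata2-high cells and at 0 to 81.2 TPM (median 0.818) in Gata2-low cells. It was above 1 TPM in 0 iHECs, 0 day-14 iHPCs and 0 day-17 iHPCs. Lpcat2, which makes platelet-activating factor, had medians of 80.4 and 16.5 TPM. Pla2g4a, the phospholipase that frees arachidonic acid, differed by 0.14.

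Few cytokine genes passed the filter. Of 22 listed, 6 passed and 4 of these were higher by 2 or more (66.7%, against 4.14% of all genes compared). Of the 16 that did not pass, 7 were above 1 TPM in a larger share of Gata2-high cells, 4 of Gata2-low cells, and 5 in no day-21 cell. Over the whole list, 13 genes were above 1 TPM in some Gata2-high cell and 15 in some Gata2-low cell. The median difference was 2.46, or 0.87 with no filter on low values. Il4 was above 1 TPM in 21 of 22 Gata2-high cells (median 184.0, maximum 552.1 TPM) and in 8 of 34 Gata2-low cells (maximum 154.3 TPM). Csf2 was above 1 TPM in 13 of 22 against 1 of 34 cells, Tnf in 17 of 22 against 13 of 34, and Il13 in 6 of 22 against 0 of 34. Il3, Il5 and Il9 were listed at 0 in all 160 cells.

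**Figure D3:**
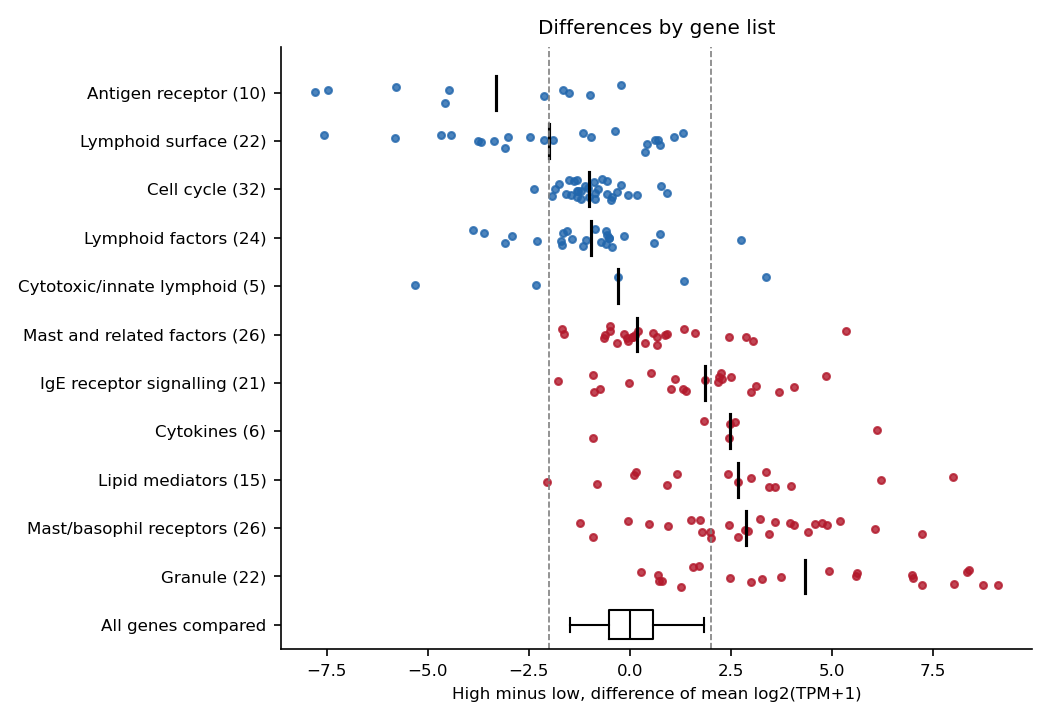
Difference of mean log2(TPM+1), Gata2-high minus Gata2-low, for the genes of 11 lists that passed the filter (points, number in brackets, black bar at the median) and for all 9276 genes compared (box from the 25th to the 75th percentile, whiskers from the 5th to the 95th); dashed lines mark -2 and 2. The granule list has a median of 4.33 and the antigen receptor list of -3.30, against 0.00 for all genes.

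By list median, transcription factors of mast cells and related lineages differed less than the granule, receptor and lipid mediator genes. This list also holds factors of other lineages and leaves out Gata2, which affects its median. Of 38 listed, 26 passed the filter, 0 were lower by 2 or more, and the median difference was 0.16. Higher by 2 or more were 4 (15.4%), against 4.14% of all genes compared. Gata1, the partner of Gata2 in mast cell and erythroid differentiation, was above 1 TPM in 18 of 22 Gata2-high cells (81.8%, exact 95% interval 59.7% to 94.8%; median 106.4, maximum 219.6 TPM) and in 3 of 34 Gata2-low cells (maximum 30.7 TPM). Mitf, a basic helix-loop-helix factor of mast cell and pigment cell genes, was above 1 TPM in 19 of 22 against 4 of 34 cells, with a median of 7.47 TPM in Gata2-high cells and maxima of 27.2 and 29.98 TPM. Both were above 1 TPM in 16 of the 22. The other factors past 2 were Lmo4 (3.04) and Bhlhe40 (2.88).

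Tal1, a hematopoietic stem cell and mast cell factor, was above 1 TPM in 11 of 22 cells with a maximum of 26.6 TPM, and listed at 0 in all 34 Gata2-low cells. Irf8, a factor of monocytes and dendritic cells, was listed at 0 in all 22 and above 1 TPM in 13 of 34 Gata2-low cells. Sfpi1 (PU.1) was high in both groups, with medians of 298.3 and 206.3 TPM. Runx1, part of the cassette and measured here without telling the transgene from the gene, was at 57.6 to 379.5 TPM against 29.5 to 265.9 TPM, and Hoxa9 differed by 1.15. Cebpa, a factor of granulocyte progenitors, was listed at 0 in every day-21 cell.

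Of 32 listed lymphoid surface genes, 22 passed the filter, 11 were lower by 2 or more and 0 higher by 2 or more, with a median difference of -2.01, or -0.78 with no filter on low values. The 10 that did not pass were all above 1 TPM in a larger share of Gata2-low cells. Cd27, a costimulatory receptor of lymphoid progenitors, was above 1 TPM in 5 of 22 Gata2-high cells (median 0.0935, maximum 87.8 TPM) and in 33 of 34 Gata2-low cells (median 339.7, maximum 955.7 TPM). Flt3 (chr5:147330741-147400489), the receptor that marks lymphoid-primed progenitors, was above 1 TPM in 2 of 22 (9.09%, exact 95% interval 1.12% to 29.2%) against 31 of 34 cells (91.2%, 76.3% to 98.1%).

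Il7r encodes CD127, for which all day-21 cells were sorted as protein. Its RNA was above 1 TPM in 8 of 22 Gata2-high cells (36.4%, exact 95% interval 17.2% to 59.3%) and in 33 of 34 Gata2-low cells (97.1%, 84.7% to 99.9%), with medians of 0.0896 and 50.2 TPM. Il2rg, the common chain that pairs with it, was high in both, with medians of 1081 and 560.8 TPM. The thymus-homing receptor Ccr9 was above 1 TPM in 4 of 22 against 29 of 34 cells and Cxcr4 in 0 of 22 against 27 of 34. Cd7 was found in more of the Gata2-high cells than Ccr9 or Cxcr4 were, but in a smaller share than of the Gata2-low cells. It was above 1 TPM in 15 of 22 Gata2-high cells with a median of 21.9 TPM, against 33 of 34 with a median of 207.3 TPM. Cd34 and Itga4 had differences of 0.41 and 0.62.

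Among lymphoid transcription factors, 24 of 36 passed the filter, 5 were lower by 2 or more, 1 was higher by 2 or more, and the median difference was -0.97. The 5 were Tcf7, Gata3, Notch1, Satb1 and Myc. Tcf7, which starts the T cell program, was above 1 TPM in 2 of 22 against 26 of 34 cells. Gata3, a GATA factor of T cells, was above 1 TPM in 3 of 22 against 32 of 34 cells, although its maximum was 183.4 TPM in Gata2-high and 149.8 TPM in Gata2-low cells. Notch1, the receptor of the feeder ligand, was above 1 TPM in 4 of 22 cells with a maximum of 2.89 TPM, against 32 of 34 with a maximum of 93.4 TPM, and Dtx1, a Notch target, in 0 of 22 against 17 of 34. Id2, an inhibitor of E proteins, was the gene that was higher, with medians of 1026 and 148.8 TPM.

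Genes of the antigen receptor and its recombination had the lowest median, -3.30, over 10 of 20 listed genes that passed the filter, 6 of them lower by 2 or more. With no filter on low values the median was -0.98. Lck, a kinase of T cell receptor signalling, was at 0 to 110.8 TPM (median 0.694) in Gata2-high cells and at 28.9 to 1738 TPM (median 770.7) in Gata2-low cells. Ptcra, the invariant pre-T cell receptor chain, was above 1 TPM in 3 of 22 cells with a maximum of 3.43 TPM, against 28 of 34 with a maximum of 1646 TPM. Rag2 was above 1 TPM in 7 of 22 against 33 of 34 cells and Rag1 in 0 of 22 against 14 of 34. Prss2, a trypsinogen gene of the T cell receptor beta region, was at 0 to 397.5 TPM against 7.42 to 11896 TPM.

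Of 22 cytotoxic and innate lymphoid genes only 5 passed the filter. Gzma and Il12rb2 were lower by 2 or more and Cst7, an inhibitor of granule cathepsins, higher, with medians of 451.0 and 82.6 TPM. The granzymes thus went opposite ways, with a difference of 8.33 for Gzmb and -5.32 for Gzma, and Prf1, the pore-forming partner of granzymes, was listed at 0 in all 22 Gata2-high cells. Of 34 cell cycle genes 32 passed and 1 (Birc5) was lower by 2 or more, against 2.57% of all genes compared. Their median difference was -1.02, and the per-cell means overlapped widely, at 2.31 to 6.80 against 2.99 to 7.07.

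Markers of other cell types were mostly low in both groups, and their part in the differences above was not tested. The summed level of 18 neutrophil and monocyte markers was 0 to 40.99 TPM in Gata2-high and 0 to 104.8 TPM in Gata2-low cells, with 1 listed gene not in the table. Of these, 2 were above 1 TPM in some Gata2-high cell, and Mpo, Elane, S100a8, S100a9, Lyz2 and Csf3r were at 0 in every day-21 cell. The 8 eosinophil markers summed to 0 to 62.7 against 0 to 50.4 TPM, the 11 megakaryocyte markers to 0 to 73.3 against 0 to 46.1 TPM, and the 9 B cell markers to 0 to 34.2 against 0 to 65.7 TPM. Epx and Ccr3 of eosinophils, Pf4, Ppbp and Vwf of megakaryocytes and Ms4a1 of B cells were at 0 in every day-21 cell. The 15 feeder and stromal markers summed to 0 to 85.3 against 0 to 146.4 TPM, and the 14 endothelial markers to 0.747 to 134.3 against 0.443 to 298.3 TPM, with Col3a1, Dcn, Pdgfra, Cdh5, Kdr and Tek at 0 in every day-21 cell. The 14 erythroid markers summed to a median of 2.41 TPM in Gata2-high and 94.997 TPM in Gata2-low cells, with maxima of 2262 and 1555 TPM, a beta-globin gene (Hbb-bt) and Car2 as the only members past 100 TPM and Slc4a1 at 0. Hbb-bt was lower by 2 or more in Gata2-high cells, with a difference of -3.78. The 15 dendritic cell markers summed to at most 1067 against 1643 TPM, and Cd74 was higher in Gata2-high cells by 3.04.

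The Gata2-high cells were not alike. The 4 with Gata2 of 66.0 to 92.9 TPM had Ms4a2 listed at 0 in all 4, Gata1 above 1 TPM in 1 of 4 and Mitf in 2 of 4, whereas of the 18 with 100 TPM or more, 17 had Ms4a2, 17 Gata1 and 17 Mitf. Median Mcpt4 was 3282 TPM in the 4 and 16572 TPM in the 18, median Ptgs1 28.9 and 198.0 TPM, and median Csf2rb 57.3 and 162.7 TPM. Flt3 was above 1 TPM in 2 of the 4 and in 0 of the 18, and Cd27 in 3 of the 4 and in 2 of the 18. The 4 cells had 3932 to 6503 genes above 1 TPM, in the lower part of the group's range, and the part of depth in these values was not tested.

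The cell with 92.9 TPM of Gata2 had the most lymphoid genes above 10 TPM. Of 14 lymphoid genes (Flt3, Il7r, Ccr9, Cd7, Cd27, Cxcr4, Ly6d, Tcf7, Gata3, Notch1, Cd3g, Ptcra, Rag2 and Lck), 8 were above 10 TPM in it, against 0 to 4 in the other 21 Gata2-high cells and 6 to 14 in Gata2-low cells. Its lymphoid mean, 2.47, was at the median of the Gata2-high cells, and the cell with 90.7 TPM of Gata2 had the highest, 3.36, with 9 of the 14 genes above 1 TPM against 8. In the cell with 92.9 TPM of Gata2, Mcpt4 was at 6014 TPM, and its 3932 genes above 1 TPM were the fewest of the group. With this cell left out, each list median above moved by less than the spread between cells.

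**Figure D4:**
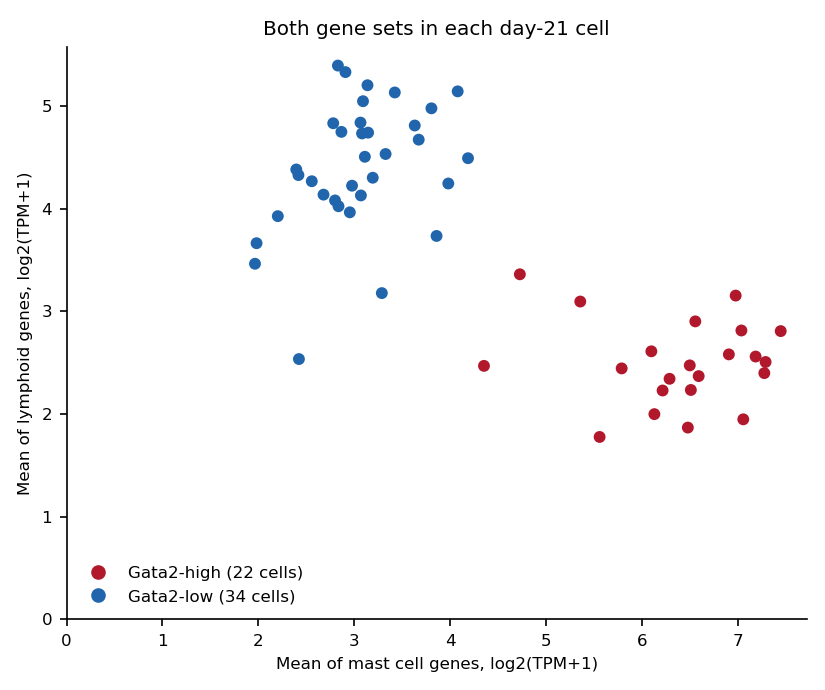
Mean log2(TPM+1) of 56 lymphoid genes (y) against that of 63 receptor, granule and lipid mediator genes (x) in each day-21 iHPC, red for the 22 Gata2-high and blue for the 34 Gata2-low cells. The mast cell mean runs from 4.35 to 7.45 in red and from 1.97 to 4.19 in blue, the lymphoid mean from 1.78 to 3.36 and from 2.53 to 5.40.

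How many cells exceeded a threshold for both kinds of transcript depended on the pair of genes. Mcpt4 and Flt3 were both above 1 TPM in 2 Gata2-high and 28 Gata2-low cells, and both above 10 TPM in 1 and 20. Mcpt4 alone was above 1 TPM in 31 of 34 Gata2-low cells, where its mean was 0.341% of that in Gata2-high cells. Whether transcripts at such levels came from the cell itself was not tested. Mcpt4 and Cd7 were both above 1 TPM in 15 and 30 cells, and Gata1 and Cd7 in 12 and 3. Gata1 and Flt3 were both above 1 TPM in 1 Gata2-high and 3 Gata2-low cells, 4 of 56 in all, and both above 10 TPM in 2. Csf2rb and Flt3 were both above 1 TPM in 2 and 6 cells. Il7r and Ms4a2 were both above 1 TPM in 5 Gata2-high and 2 Gata2-low cells.

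Among the 22 Gata2-high cells the Gata2 level went with that of some mast cell genes and not of others. Spearman's rho with Gata2 was 0.74 for Ndst2, 0.70 for Adora3, 0.70 for Plcb2, a phospholipase, 0.68 for Rasgrp4, a mast cell guanine exchange factor, 0.65 for Kit and 0.45 for Mcpt1. It was 0.10 for Mcpt4, 0.07 for Cma1, 0.12 for Hdc, 0.08 for Csf2rb, 0.19 for Cpa3, -0.02 for Gzmb and -0.34 for Ndst1. With the mean of 63 mast cell genes it was 0.77, with the granule genes alone 0.37 (0.24 without the 4 cells under 100 TPM), and with the number of genes above 1 TPM 0.57. Pcna, a replication gene, had the lowest value of the listed genes, -0.56. The points are cells of 1 sample that differ in complexity, so these are descriptions.

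Gata2 was not particular to day 21. At 31 TPM or more it was found in 12 of 65 iHECs (maximum 213.8 TPM), and in 0 iHPCs of either earlier day, where the maxima were 12.03 and 6.78 TPM. Those 12 iHECs lacked the protease genes: Mcpt4, Cma1, Mcpt1, Gzmb, Ctsg, Cyp11a1, Ms4a2, Gata1 and Il4 were above 1 TPM in 0 of 12, which allows up to 3 of 12. The same named genes were above 1 TPM in 0 of the other 53 iHECs too, so their absence was not particular to iHECs with high Gata2. Of the 20 receptor, granule and lipid genes with the largest differences, 13 were above 1 TPM in 0 of the 12. The share over all genes was not computed. Csf2rb and Lilrb4 were above 1 TPM in 11 of 12 each, and also in 45 and 46 of the other 53 iHECs. The day-14 and day-17 gates left out FcεRIα+ cells and the day-21 gate did not, so gate and day cannot be told apart for the absence of such cells before day 21.

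**Figure D5:**
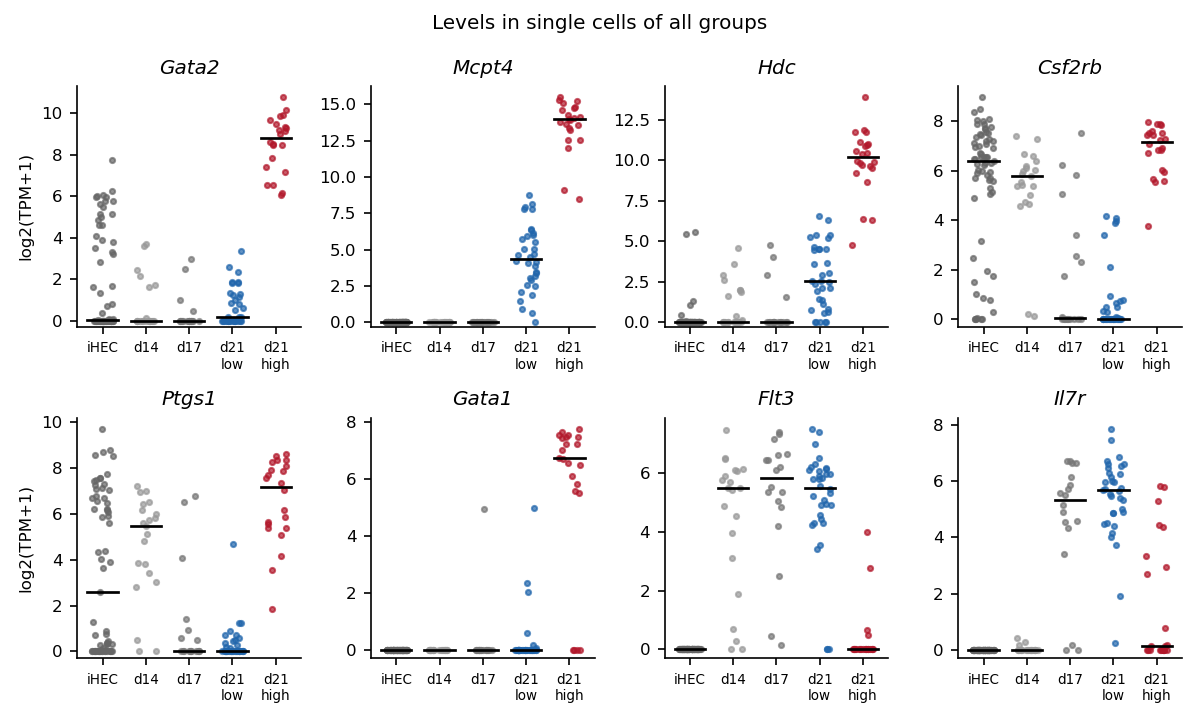
log2(TPM+1) of 8 genes in every cell of the 65 iHECs, 21 day-14 and 18 day-17 iHPCs, and the 34 Gata2-low and 22 Gata2-high day-21 iHPCs; bars are medians. Mcpt4 is at 0 in every cell before day 21, Gata1 is above 1 TPM in 1 cell before day 21, and Csf2rb and Ptgs1 are present in iHECs and day-14 iHPCs and low in Gata2-low cells.

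Set in this order, the mast cell genes fell into those first seen at day 21 and those seen before. Mcpt4, Cma1, Mcpt1, Mcpt2, Mcpt8, Ms4a2, Il1rl1 and Cyp11a1 were above 1 TPM in 0 of the 104 cells of the other groups. Csf2rb exceeded 1 TPM in 56 iHECs, 19 cells of day 14 and 8 cells of day 17, Ptgs1 in 34, 18 and 4, and Adora2b in 7, 16 and 5. Cpa3 exceeded it in 11 cells of day 17 and in 0 earlier cells. On the lymphoid side, Flt3 exceeded 1 TPM in 17 cells of day 14 and 16 of day 17, and Il7r in 0 and 15, with medians of 56.98 and 39.7 TPM at day 17 against 44.6 and 50.2 TPM in Gata2-low and 0 and 0.0896 TPM in Gata2-high cells.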

How the data were processed

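Single cells were sorted into lysis buffer, and cDNA amplification used the Discover-sc WTA Kit V2 and library making a TruePrep kit. Per the labels and the study's methods, the authors aligned reads to mm10 with HISAT2 2.1.0, used SAMtools 0.1.19, and computed TPM (transcripts per 1000000) per gene with StringTie 1.3.4. The deposited table holds TPM for 23420 genes in 160 cells, summing to 988686 to 999108 TPM per cell. TPM keeps no read depth, so the depth per cell is unknown and the number of genes above 1 TPM stands for complexity. Intervals on shares of cells are exact (Clopper-Pearson, 95%) and cover counting error only.

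Cells were split at 31 TPM of Gata2, and differences are of mean log2(TPM+1), a scale that understates changes of low genes. Since the labels name no animal or culture, no test was run. The computation was tested on simulated data. The cells, gene lists and rules were chosen with earlier results of these data known. Members of the lists, and the 15 largest and 15 smallest differences over all genes, were named. The heparin list and any gene said to be so were chosen after the values were seen. Python 3.11.15, pandas 2.3.3, NumPy 2.4.6, SciPy 1.17.1 and matplotlib 3.10.9 were used. Promoter windows came from RefSeq (GRCm38.p6), gene positions from GENCODE (GRCm38). Alternatives changed the pseudocount, the filter, the Gata2 threshold, the scaling and the cells included.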

Additional observations from a re-analysis of the deposited data

How the results depend on the processing

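Each of 22 followed genes kept the sign of its difference under all alternatives run. The median of mast cell transcription factors went from 0.16 to -0.11 with cells of at least 5000 genes, and the median of cytotoxic genes from -0.31 to 0.23 with a Gata2 threshold of 1 TPM. A Gata2 threshold of 1 TPM took 34 cells, and gave 197 genes higher and 73 lower by 2 or more, list medians of 1.95 (receptors), 2.79 (granule), 1.43 (cytokines), -0.70 (lymphoid surface) and -2.12 (antigen receptor), and a rho of 0.81 between Gata2 and the granule mean. With a pseudocount of 0.1, 867 genes were higher and 582 lower by 2 or more, and the medians were 4.46 for receptors, 5.75 for granule genes, 3.76 for cytokines and -5.05 for antigen receptor genes. With a pseudocount of 10 there were 112 and 45 such genes, and the medians were 1.51 for receptors, 2.88 for granule genes, 1.37 for lipid enzymes, 1.11 for cytokines, -1.11 for lymphoid surface genes and -1.69 for antigen receptor genes. With no filter on low values the same 6 medians were 1.81, 3.13, 0.14, 0.87, -0.78 and -0.98. A filter of more than 28 cells left 211 genes higher by 2 or more and an antigen receptor median of -4.53. Gata2 above 1 TPM was found in 35 cells of the other groups and at 100 TPM or more in 1. The shorter motif GATA was in 49.5% of the windows of higher genes. Rescaling by size factors or without granule genes, and keeping only cells with at least 5000 genes, moved no list median by more than the spread between cells. Neither did 3 alternatives chosen after seeing the data, which left out the 4 Gata2-high cells under 100 TPM, the 12 Gata2-low cells above 1 TPM, or the Gata2-high cell with 8 lymphoid genes above 10 TPM. Size factors moved the median over all genes from 0.00 to 0.15, and keeping cells with at least 5000 genes moved it to -0.17. Under these 6 alternatives 340 to 512 genes were higher and 198 to 353 lower by 2 or more, and the rho with the granule mean was 0.24 to 0.37 where computed. No paired analysis was possible because the numbers in the labels only count cells and no test was run.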

Other observations

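Genes that build heparin and heparan sulfate, the sulfated chains that hold proteases in mast cell granules, were listed after the values had been seen. Of 20, 13 passed the filter, 5 of these were higher by 2 or more in Gata2-high cells and 0 lower by 2 or more, with a median difference of 1.59. Papss2, which makes the sulfate donor, was at 27.3 to 541.4 TPM in Gata2-high cells and at 0 to 67.7 TPM in Gata2-low cells. Hs6st2, a 6-O-sulfotransferase, was above 1 TPM in 20 of 22 against 4 of 34 cells, and Hs3st1, a 3-O-sulfotransferase, in 16 of 22 against 3 of 34, with maxima of 287.7 and 291.8 TPM. Ext1, of the chain polymerase, had medians of 18.7 and 0 TPM, whereas Ext2, its partner, had medians of 13.3 and 10.6 TPM.

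Among the largest differences outside the lists, Ctla2a, a cathepsin inhibitor-like gene, was at 44.9 to 937.0 TPM in Gata2-high cells and at 0 to 58.4 TPM in Gata2-low cells. Cfp, which encodes the complement factor properdin, was at 29.7 to 1226 TPM against 0 to 376.9 TPM. Nrgn, a calmodulin-binding protein, was above 1 TPM in 1 of 22 against 32 of 34 cells. Ptprc, which encodes CD45, for which the cells were sorted, had medians of 34.7 and 120.2 TPM.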
